A study of Mus musculus with 28 samples.

Results

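The genes Havcr1, Krt20, Mdk, Spp1, Clu, Krt8, Krt18, Vim, Vcam1 and Timp1 were followed in the kidney and the liver of mice gavaged with nicotinamide mononucleotide (NMN), a precursor of NAD+, or with water. They were listed by symbol as tubule injury and repair genes together with midkine, and all 10 were found among the 54446 genes counted in each library. Expression was measured by polyA RNA sequencing in 28 libraries from male C57BL/6 mice (C57BL6J in the methods) of 8 weeks, gavaged for 7 days. One schedule gave NMN at 1340 mg/kg/d in 1 gavage per day, with 4 mice on NMN and 4 on water for each organ, and the other gave 2680 mg/kg/d in 2 gavages per day, with 3 on NMN and 3 on water. Each schedule had its own water mice with the same number of gavages, and the labels name no transgene or deletion. Counted reads per library ran from 13174264 to 33872983 in the kidney and from 12688324 to 20635269 in the liver, and at 2680 mg/kg/d the NMN kidneys (22922994 to 33872983) were deeper than their water kidneys (16358886 to 18983689). The dose, the number of gavages and any other difference between the schedules cannot be told apart. Levels are given as CPM (counts scaled to the library size), scaled over all 28 libraries, and differences as log2 fold changes with the standard error (SE) of a fit within the comparison. RNA came from bulk tissue, so fewer cells of a type and less RNA per cell cannot be told apart.

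The proximal tubule reabsorbs most of the filtrate and is the segment most exposed to toxic and ischaemic damage. Damaged tubule cells lose transporters, spread over the bare basement membrane and take up genes that the healthy epithelium hardly uses. Havcr1 encodes kidney injury molecule, a surface receptor with which tubule cells engulf dying neighbours, and Krt20 a keratin of the urothelium that appears in damaged tubules. Mdk encodes midkine, a small heparin-binding growth factor that is made by tubule cells and recruits leukocytes. Spp1 (osteopontin) and Clu (clusterin, an extracellular chaperone) are secreted. Krt8 and Krt18 form the keratin pair of simple epithelia, Vim (vimentin) is the intermediate filament of mesenchymal cells, Vcam1 is an adhesion molecule for leukocytes, and Timp1 inhibits matrix metalloproteinases.

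Reads were counted without regard to strand, so reads of overlapping genes cannot be told apart where they share bases. Spp1 shares 309 exonic bases with Gm42793 on its own strand, Krt8 shares 101 with Gm36026 and Vcam1 61 with Gm43109, each on the other strand. These neighbours had 192, 24 and 0 counts over all 28 libraries. Timp1 lies within Syn1 without shared exonic bases.

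The members were chosen by their kidney levels in NMN and water mice, with earlier results of these libraries known. Every comparison that uses their kidney values is therefore given as a description, with no p for a member, and the counts of calls there stand only beside those of all genes. Tests are given for NMN in the liver and for genes outside the list. The lists of these other genes were also chosen with earlier results of these libraries known, so their adjusted p values are no independent support.

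Mdk is the member whose kidney level separated NMN from water mice in both schedules, so its coding sequence is shown. In the GENCODE M21 annotation (GRCm38) the gene lies on the minus strand at chr2:91929805-91932297, and all 4 of its coding transcripts share 1 reading frame of 423 bases, which encodes 140 amino acids before the stop codon and has a GC content of 58.9%. The first 300 bases, or 100 codons, are printed with the start codon in capitals.
Mdk, bases 1 to 300 of the coding sequence: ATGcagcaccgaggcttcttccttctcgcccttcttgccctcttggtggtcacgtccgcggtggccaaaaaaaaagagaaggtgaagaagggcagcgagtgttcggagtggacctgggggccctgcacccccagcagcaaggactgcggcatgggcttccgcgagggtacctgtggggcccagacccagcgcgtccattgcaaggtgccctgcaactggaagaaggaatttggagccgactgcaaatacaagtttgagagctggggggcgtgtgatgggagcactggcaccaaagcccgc

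The tissue labels were checked against marker genes. In the kidney libraries the 30 proximal tubule genes summed to between 31798 and 47393 CPM, with Kap, an androgen-driven protein of the proximal tubule, as the most abundant in each group. In the liver libraries the list summed to between 12635 and 21850 CPM, mostly from Cyp2e1, a cytochrome that hepatocytes also make, so the sum separated the organs less than single markers did. Albumin (Alb), the main product of hepatocytes, lay between 79932 and 188254 CPM in the liver libraries and between 6.42 and 83.2 CPM in the kidney libraries. Slc34a1, the phosphate transporter of the proximal tubule, lay between 2377 and 5113 CPM in the kidney libraries and reached at most 14.5 CPM in the liver libraries. No library went against its tissue label. The kidney libraries of the schedules differed in the share of counts from mitochondrially encoded genes, which was 9.71% ± 0.70 (SD, n = 4) in water mice at 1340 mg/kg/d and 20.6% ± 0.91 (SD, n = 3) in water mice at 2680 mg/kg/d. NMN and water mice of 1 schedule were close in this share, with 9.48% ± 0.67 and 20.3% ± 0.35 in the NMN mice.

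In the kidney of water mice the members spanned a wide range when read per kb of exon. Spp1 stood at 300 ± 14.2 CPM per kb (SD, n = 7 mice of both schedules), followed by Clu at 56.2 ± 6.22, Krt8 at 42.0 ± 5.59, Mdk at 17.6 ± 2.97 and Krt18 at 11.4 ± 1.23. Vim followed at 5.10 ± 0.36 CPM per kb. The lowest 4 members were Vcam1 at 0.58 ± 0.15, Havcr1 at 0.55 ± 0.49, Krt20 at 0.37 ± 0.16 and Timp1 at 0.27 ± 0.18 CPM per kb, and these neighbours lay within each other's spread. The injury receptor and the injury keratin were thus read from few fragments, with 207 counts of Havcr1 and 112 of Krt20 over 7 kidneys, against 77643 of Spp1.

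Mdk was lower in every NMN kidney than in every water kidney of its schedule. In the 1340 mg/kg/d schedule the water mice had 20.2, 22.2, 16.5 and 23.9 CPM (replicates 1 to 4) and the NMN mice 6.08, 7.53, 9.35 and 6.26 CPM. The highest NMN mouse stayed below the lowest water mouse. In the 2680 mg/kg/d schedule the water mice had 26.6, 26.8 and 27.0 CPM and the NMN mice 16.6, 4.42 and 3.79 CPM. Here too the groups did not overlap, but NMN replicate 1 lay between the water mice and the other NMN mice. The log2 fold change was -1.50 (SE 0.16), a level 2.83-fold lower, in the first schedule and -1.71 (SE 0.66), 3.27-fold lower, in the second. Without NMN replicate 1 of the second schedule the difference was -2.71 (SE 0.13) on the log2 scale. The coefficient of variation in the second schedule was 87.3% in the NMN group and 0.67% in the water group. The water libraries had 570 to 650 counts of Mdk, for which counting error alone is larger than 0.67%. That value therefore does not measure the variation between water mice.

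**Figure D1:**
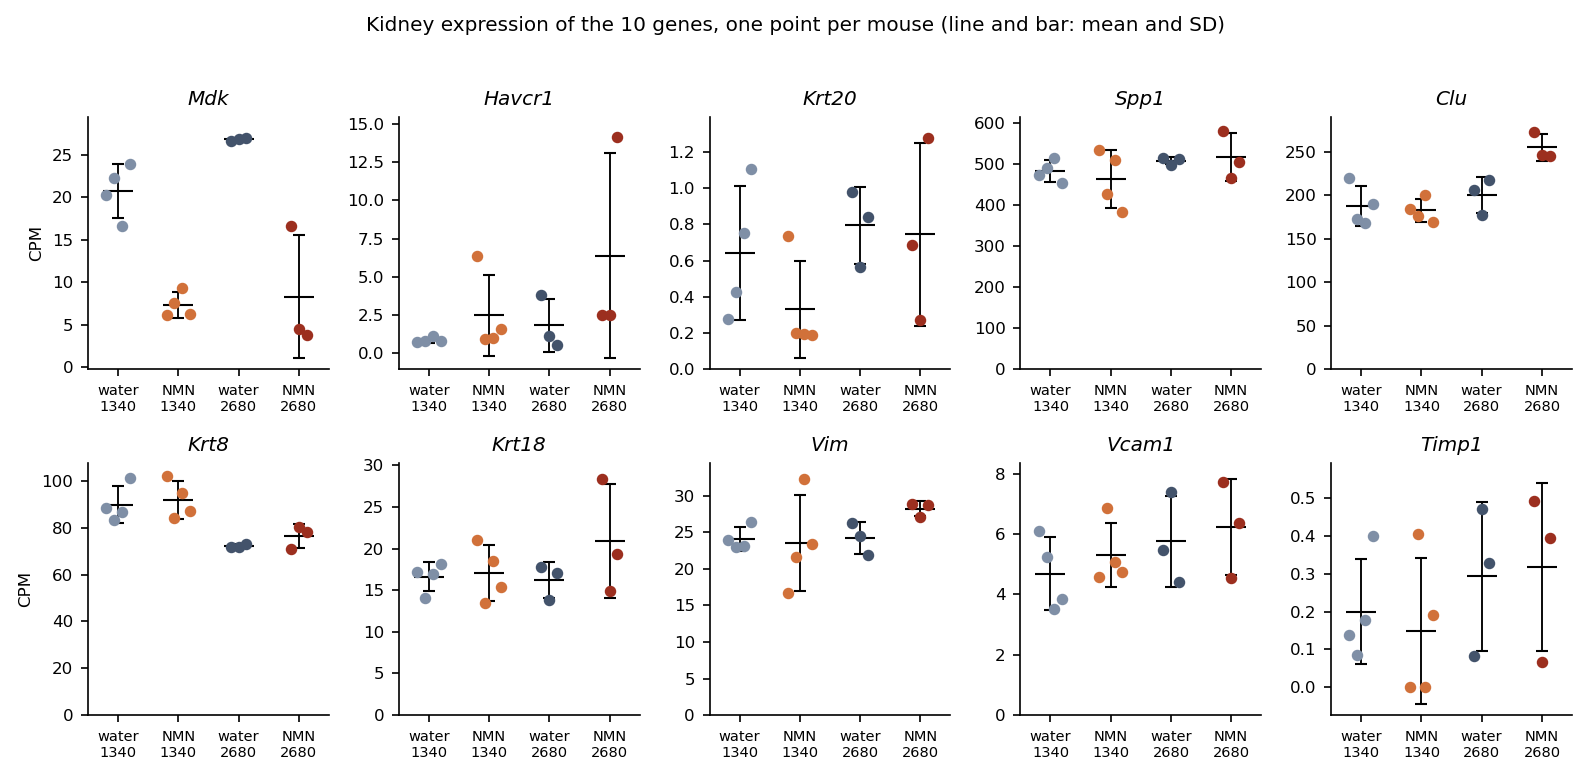
Kidney expression of the 10 genes in CPM (vertical axis, from 0 or just below it), with 1 point per mouse in the water and NMN groups of the 1340 and 2680 mg/kg/d schedules; the horizontal line and the bar give the mean and SD. Mdk separates the NMN from the water mice in both schedules, whereas Havcr1 rises above its neighbours in single mice, at 6.39, 3.81 and 14.1 CPM.

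Havcr1 behaved differently, being high in single mice. The water mice of the 1340 mg/kg/d schedule had 0.740, 0.810, 1.11 and 0.798 CPM and the NMN mice 6.39, 0.910, 1.02 and 1.58 CPM. Only NMN replicate 1 stood clearly apart, with 122 counts, and NMN replicates 2 and 3 lay within the range of the water mice. In the 2680 mg/kg/d schedule the water mice had 3.81, 1.13 and 0.562 CPM and the NMN mice 2.52, 2.52 and 14.1 CPM. NMN replicate 3 was the highest kidney of all 14, with 607 counts, whereas water replicate 1 exceeded the other NMN mice, so the groups overlapped. The log2 fold change was 1.50 (SE 0.57) and 1.80 (SE 1.13). Without NMN replicate 1 in the first schedule it was 0.44 (SE 0.38), so 1 mouse carried most of the difference there. In the second it was 0.44 (SE 0.73) without NMN replicate 3, but it reached 2.94 with another library left out. The size of the difference in that schedule thus hung on single mice.

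Krt20, the other gene that healthy tubules hardly use, was low throughout. In the first schedule the water mice had 0.278, 0.426, 0.754 and 1.11 CPM and the NMN mice 0.733, 0.202, 0.195 and 0.191 CPM. The only NMN mouse within the water range was replicate 1, which was also the mouse with the high Havcr1. It had the highest Krt20 among the NMN mice only. In the second schedule the water mice had 0.982, 0.564 and 0.842 CPM and the NMN mice 0.688, 0.272 and 1.28 CPM. There the mouse with the highest Havcr1, NMN replicate 3, had the highest Krt20 of both groups. Krt20 passed the filter on low counts only in the second schedule, where its log2 fold change was -0.05 (SE 0.48). The same 2 mice did not stand out for Lcn2, a secreted lipocalin used as a marker of tubule damage. They had 2.72 and 2.35 CPM of it, against a range of 1.15 to 5.47 CPM over all 14 kidneys. The chemokine Cxcl1 was at 10.5 CPM in NMN replicate 1 of the first schedule and between 0.18 and 1.10 CPM in the other 13 kidneys, including 0.44 CPM in NMN replicate 3 of the second schedule.

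Spp1 and Clu were abundant and nearly level between NMN and water mice, except for Clu in the second schedule. Spp1 lay between 453 and 516 CPM in the water mice of the first schedule and between 382 and 533 CPM in its NMN mice, and between 498 and 514 against 465 and 581 CPM in the second. The groups overlapped in both, with log2 fold changes of -0.06 (SE 0.11) and 0.03 (SE 0.10). Clu had 220, 173, 168 and 191 CPM in water mice and 185, 177, 200 and 170 CPM in NMN mice of the first schedule, a log2 fold change of -0.04 (SE 0.10). In the second schedule it had 207, 178 and 217 CPM in water mice and 273, 247 and 246 CPM in NMN mice. Every NMN kidney of that schedule exceeded every water kidney for Clu, by a log2 fold change of 0.35 (SE 0.09), 1.28-fold.

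Of the cytoskeletal members, Krt8 and Krt18 stayed near their water level in most mice, whereas Vim scattered in the first schedule and was higher in the second. Krt8 lay between 83.2 and 101 CPM in water mice and between 84.0 and 102 CPM in NMN mice of the first schedule, and between 71.6 and 73.1 against 70.8 and 80.5 CPM in the second, with log2 fold changes of 0.03 (SE 0.09) and 0.09 (SE 0.08). Its partner Krt18 had 17.2, 14.1, 17.0 and 18.2 CPM in water mice and 21.1, 13.5, 18.6 and 15.4 CPM in NMN mice of the first schedule. In the second it had 17.8, 13.8 and 17.1 against 28.4, 14.9 and 19.4 CPM, a log2 fold change of 0.36 (SE 0.24) in which NMN replicate 1 was the highest kidney of all. Without that mouse it was 0.08. Vim had 24.0, 22.9, 23.2 and 26.4 CPM in water mice of the first schedule and 16.7, 21.7, 32.4 and 23.4 CPM in its NMN mice, which scattered to both sides of the water range. In the second schedule Vim had 26.3, 24.5 and 21.9 CPM in water mice and 28.9, 27.1 and 28.7 CPM in NMN mice. These groups did not overlap, by a log2 fold change of 0.23 (SE 0.09).

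The remaining members showed no separation of the groups. Vcam1 had 6.11, 5.25, 3.50 and 3.86 CPM in water mice and 4.56, 6.87, 5.06 and 4.73 CPM in NMN mice of the first schedule, and 5.48, 7.38 and 4.40 against 7.73, 4.56 and 6.37 CPM in the second. The log2 fold changes were 0.18 (SE 0.22) and 0.12 (SE 0.23). Timp1 reached at most 0.491 CPM in any kidney, with 0 counts in 2 NMN mice of the first schedule. It passed the filter only in the second schedule, with a log2 fold change of 0.19 (SE 0.69). With 1 library left out in the second schedule the log2 fold change ran from -0.06 to 0.33 for Vcam1, from -0.72 to 0.32 for Krt20 and, in the fits that kept it, from -0.29 to 0.71 for Timp1, so none of the 3 kept its sign.

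By the common threshold of an adjusted p under 0.05 (edgeR's quasi-likelihood test, Benjamini-Hochberg adjustment over all genes tested), 18 of 14972 genes (0.120%) were called in the kidney at 1340 mg/kg/d, and Mdk was the only one of the 8 members tested. At 2680 mg/kg/d 61 of 15245 genes (0.400%) were called and none of the 10 members. Clu and Vim were under an unadjusted p of 0.05 there, with 11.1% of all genes, and DESeq2 called Clu, with 1.53% of all genes. Every NMN mouse was below every water mouse for 2.69% of all genes in the first schedule and for 9.01% in the second, as was Mdk in both, and above for 8.11% in the second, as were Clu and Vim. As these contrasts chose the members, nothing is read from these counts. The median log2 fold change was 0.00 over the members and 0.00 over all genes tested in the first schedule, and 0.15 and 0.00 in the second.

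**Figure D2:**
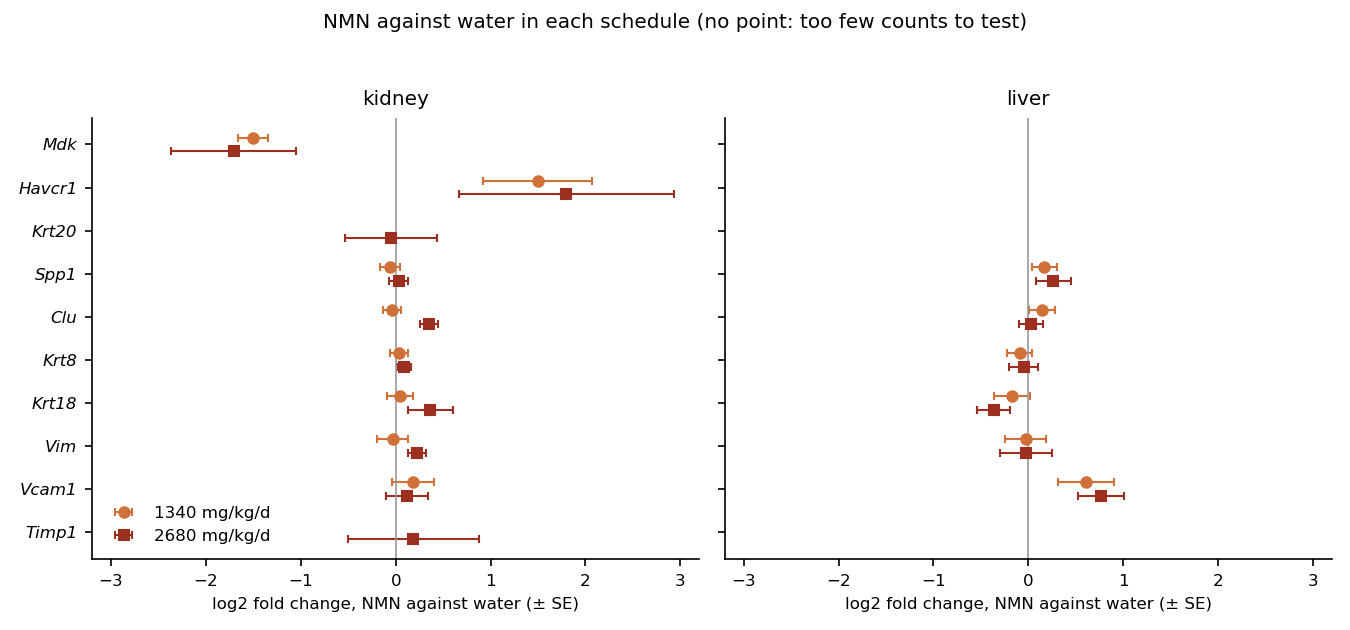
Log2 fold change of NMN against water mice (horizontal axis, bars ± SE) for each member in the kidney (left) and the liver (right), with circles for 1340 and squares for 2680 mg/kg/d; a gene without a point had too few counts to test. In the kidney only Mdk (-1.50 and -1.71) and Havcr1 (1.50 and 1.80) lie more than 1 log2 unit from 0, and Havcr1 has the wider bars.

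The genes whose pattern over the 14 kidneys was most like that of Mdk were Uap1l1, Trim35 and Camk1g. Likeness was measured by Pearson's r of log2 CPM after removing each schedule's mean, among 13266 genes, and the libraries share the treatment and differ in depth, so r is a description. Uap1l1, related to an enzyme that makes activated amino sugars, had r = 0.91, Trim35, a ubiquitin ligase of the tripartite motif family, r = 0.90, and Camk1g, a calmodulin-dependent kinase, r = 0.90. Camk1g had 1.30, 1.49, 1.60 and 2.04 CPM in water mice and 0.84, 0.30, 0.58 and 0.33 CPM in NMN mice of the first schedule, and 1.51, 1.18 and 1.78 against 0.62, 0.27 and 0.30 CPM in the second. Its groups did not overlap. Every NMN mouse was below every water mouse for 2.69% of all genes at 1340 mg/kg/d and for 9.01% at 2680 mg/kg/d. As for Mdk, the least low NMN mouse at 2680 mg/kg/d was replicate 1. Uap1l1, Trim35 and Camk1g were picked for following Mdk, with the difference between NMN and water left in. Their separation, the shared mouse and the fold changes below therefore follow from that choice and are no independent support. The log2 fold changes were -1.64 (SE 0.39) and -1.91 (SE 0.38) for Camk1g, -0.62 (SE 0.11) and -0.56 (SE 0.12) for Uap1l1, and -0.34 (SE 0.11) and -0.32 (SE 0.13) for Trim35.

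**Figure D3:**
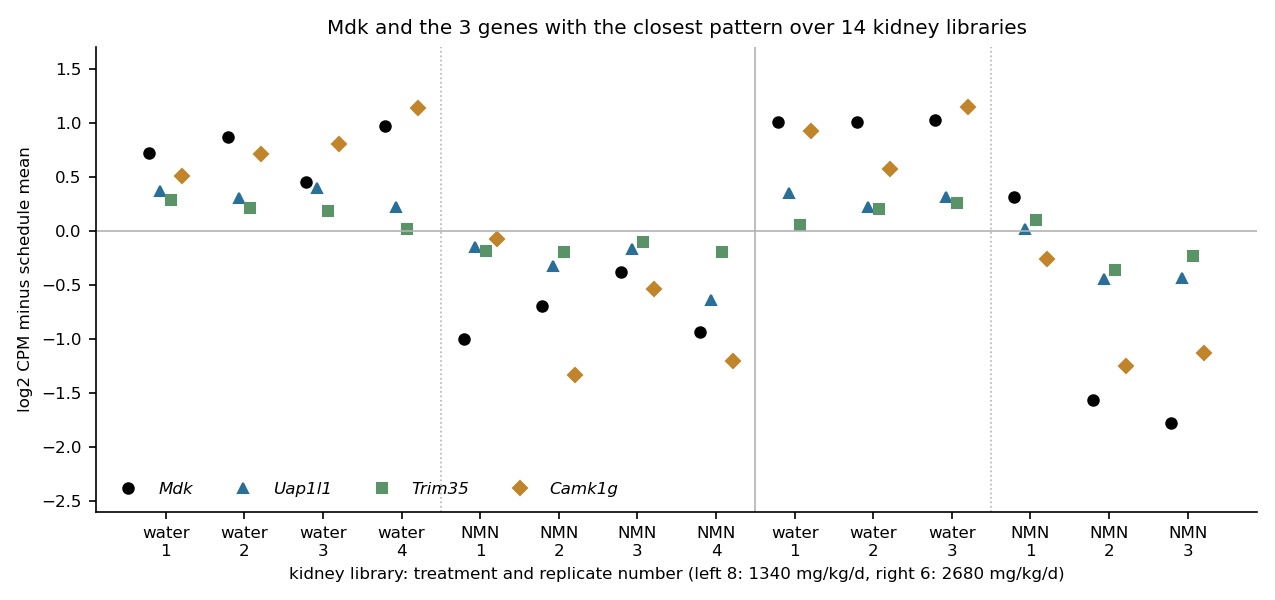
Log2 CPM minus the mean of the schedule (vertical axis) of Mdk and the 3 genes closest to it, for each of the 14 kidney libraries by treatment and replicate number (left of the solid line 1340, right of it 2680 mg/kg/d). All 4 genes lie above 0 in the 7 water mice, and in NMN replicate 1 of the right part Mdk lies nearer to the water mice than in the other NMN mice. The 3 genes were picked for following Mdk, so their likeness to it follows from the choice.

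Havcr1 was most like Tyw1 (r = 0.88), Serpina1b (r = 0.86) and Exosc7 (r = 0.84), and Krt20 like Gm44785 (r = 0.86), Naif1 (r = 0.84) and Gstm6 (r = 0.83). Tyw1 and Exosc7 had log2 fold changes of 0.05 and 0.04 in the first schedule and 0.17 and 0.26 in the second. Serpina1b had larger ones, 0.38 (SE 0.17) at 1340 mg/kg/d and 0.87 (SE 0.58) at 2680 mg/kg/d. As Tyw1, Serpina1b and Exosc7 were picked for following Havcr1, these values are a description. The closest genes to Krt18 were Sprr1a (r = 0.89), a cornified envelope protein of stratified epithelia, Dhrs3 (r = 0.88) and Cdk5rap1 (r = 0.87). Clu was closest to Alox5ap (r = 0.88), Lypd6b (r = 0.87) and Guk1 (r = 0.86), Krt8 to Marc2 (r = 0.91), Tmem243 (r = 0.88) and Gtf2h5 (r = 0.87), and Spp1 to Rnf186, Gm45053 and Gm43672 (r = 0.86 each). The endothelial receptor gene Tek (r = 0.87) was among the closest to Vcam1, with Masp1 (r = 0.88) and Cdh13 (r = 0.87). Vim was closest to Ppp1r12c (r = 0.90), Pip4k2b (r = 0.89) and Cacnb3 (r = 0.89). Timp1 did not pass the filter on low counts over the 14 kidneys and was left out, and among the 9 other members the largest r was -0.68 between Havcr1 and Mdk, followed by 0.64 between Spp1 and Krt18.

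Other genes of the same processes were read from lists that did not include the members but were also chosen with earlier results known. Of 34 other tubule injury and repair genes, 30 were tested at 1340 mg/kg/d, where 18 were higher in NMN mice, none was called and the median log2 fold change was 0.03. At 2680 mg/kg/d 29 were tested and 18 were higher with a median of 0.18. One was called there, Fgg, the fibrinogen gamma chain, which rose from 6.67, 7.29 and 7.63 CPM in water mice to 16.0, 13.0 and 14.8 CPM in NMN mice (log2 fold change 1.03, SE 0.12, adjusted p 0.00999 by edgeR). The other chains of fibrinogen were not called. Fga had 23.0, 16.1 and 18.5 CPM in water mice and 39.1, 24.6 and 29.7 CPM in NMN mice, and Fgb 1.19, 0.75 and 1.03 against 4.23, 0.71 and 1.16 CPM. Hepatocytes make fibrinogen in bulk, and Alb in these kidneys was 7.61, 7.80 and 9.27 CPM in water mice and 6.42, 13.1 and 12.2 CPM in NMN mice. The part of liver RNA in this difference was not tested. At 1340 mg/kg/d Fgg had 8.19, 7.63, 8.92 and 10.7 CPM in water mice and 9.12, 10.7, 8.81 and 9.66 CPM in NMN mice. Without water replicate 3 of the second schedule Fgg was no longer called (adjusted p 0.0648 by edgeR).

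At 1340 mg/kg/d Plin2 (lipid droplets) and Anxa3 (an annexin) of the injury list did not pass the threshold, with log2 fold changes of -0.25 and 0.32. At 2680 mg/kg/d Hmox1, haem oxygenase, and Pdgfb, a growth factor for mural cells, followed Fgg, with log2 fold changes of -0.44 (SE 0.11, adjusted p 0.128 by edgeR) and -0.36 (SE 0.10, adjusted p 0.199 by edgeR).

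None of the genes around midkine was called in the kidney. Of 15 partner and receptor genes 13 were tested in the first schedule, with 9 higher and a median log2 fold change of 0.04, and 12 in the second, with 6 higher and a median of -0.01. Ptn (pleiotrophin), the relative of midkine, had a log2 fold change of -0.41 (SE 0.24) at 2680 mg/kg/d, and Lrp1, an endocytic receptor that binds midkine, 0.28 (SE 0.10, adjusted p 0.302 by edgeR). All 7 osteopontin receptors were tested in both schedules and none was called, with medians of 0.14 and -0.01. The largest values there were 0.51 (SE 0.32) for Itga4 in the first schedule and -0.51 (SE 0.33) for Itgb3 in the second, both integrin chains.

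Among the adhesion and NF-kB target genes 11 were tested in each schedule, with 9 and 6 higher, medians of 0.25 and 0.07 and no call. Nfkbia, the inhibitor that NF-kB induces against itself, had 51.5 CPM in NMN replicate 1 of the first schedule, the mouse with the high Havcr1 and Cxcl1, and between 26.9 and 33.5 CPM in the other NMN mice. Against the water mice of that schedule its log2 fold change was 0.46 (SE 0.22, adjusted p 0.577 by edgeR). Nfkbia and Cxcl1 were singled out in this mouse after their values were seen, and its Vcam1, at 4.56 CPM, was the lowest of its NMN group. Cxcl1 had a log2 fold change of -1.04 (SE 0.35, adjusted p 0.288 by edgeR) in the second schedule. For the TIMP family and metalloproteinases 8 and 10 of 13 were tested, with 3 and 7 higher, medians of -0.02 and 0.07 and no call, and Timp3, the inhibitor bound to matrix, had the smallest p in both (log2 fold changes -0.24 and -0.38). The 13 keratin partners and epithelial junction genes were all tested, with 8 and 10 higher and medians of 0.07 and 0.10. Dsp (desmoplakin) at 0.34 and 0.30 and Epcam, an epithelial adhesion molecule, at 0.24 and 0.36 were among the smallest p in both schedules, and neither was called.

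The genes of the differentiated proximal tubule were read beside the injury genes. All 30 were tested in both schedules, 11 and 13 were higher in NMN mice and the medians were -0.09 and -0.07. Miox, the kidney enzyme that opens the inositol ring, fell from 1393, 1298 and 1383 CPM to 681, 847 and 781 CPM at 2680 mg/kg/d (log2 fold change -0.82, SE 0.10, adjusted p 0.0121 by edgeR), and was the only one called. At 1340 mg/kg/d it had 1549, 1353, 1349 and 1446 CPM in water mice and 955, 831, 1281 and 948 CPM in NMN mice (log2 fold change -0.50, SE 0.12, adjusted p 0.108 by edgeR). The groups did not overlap for Miox in either schedule, and without water replicate 3 of the second the call was lost (adjusted p 0.124 by edgeR). The largest other differences by p at 1340 mg/kg/d were 0.67 (SE 0.14) for Pck1, an enzyme of gluconeogenesis, and -0.63 (SE 0.13) for the glucose transporter Slc5a2, both at an adjusted p of 0.0852 by edgeR. Kap at -0.43 and the endocytic receptor Lrp2 at -0.29 followed Miox at 2680 mg/kg/d without a call.

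**Figure D4:**
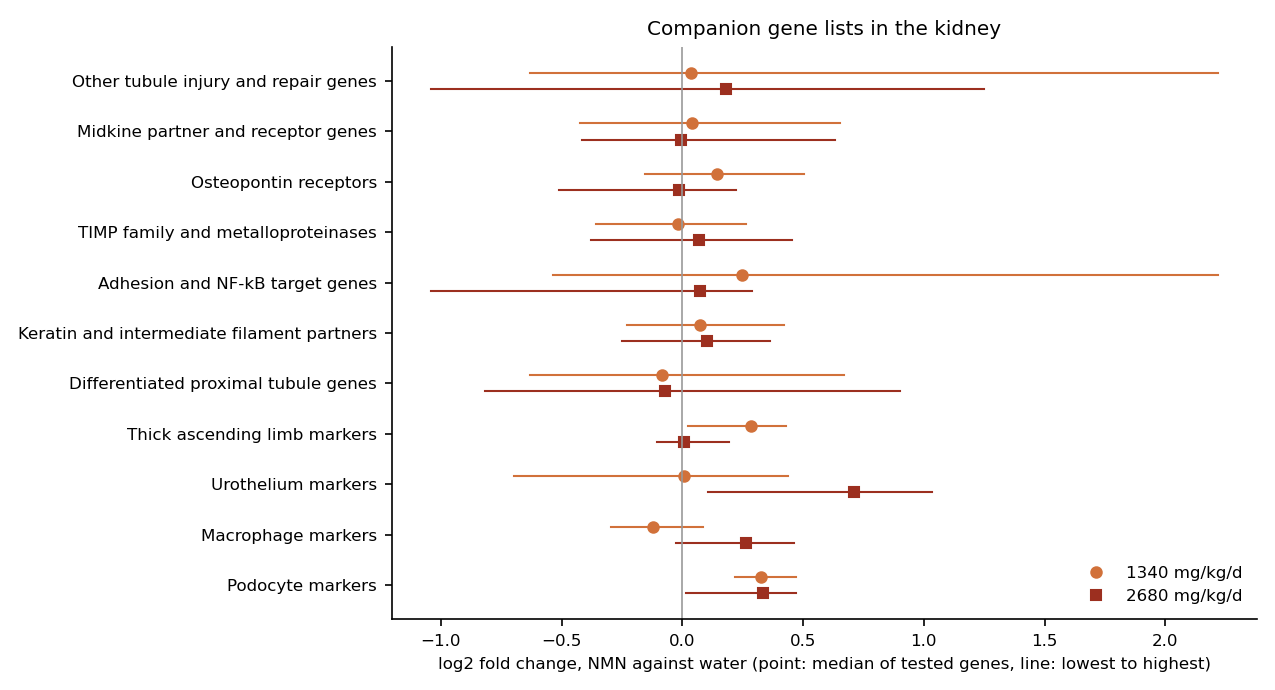
Median (point) and range from lowest to highest (line) of the log2 fold change of NMN against water in the kidney, over the tested genes of each companion list, with circles for 1340 and squares for 2680 mg/kg/d. Most medians lie within 0.3 of 0, whereas the urothelium markers at 2680 mg/kg/d have a median of 0.71.

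Markers of other cells that a kidney sample can hold were read for the same mice. The 7 urothelium markers tested were all higher in NMN mice at 2680 mg/kg/d, with a median log2 fold change of 0.71 and no call, against 4 of 7 and a median of 0.01 at 1340 mg/kg/d. The list's sum was 50.7, 15.2 and 19.8 CPM in the NMN mice and 19.4, 11.9 and 18.6 CPM in the water mice of the second schedule, so NMN replicate 1 alone stood above the water range by a wide margin. Upk1a, an uroplakin of the urothelial surface, had 14.02 CPM in that mouse and between 2.49 and 6.42 CPM in the other 13 kidneys. This was the mouse with the least low Mdk, the highest Spp1 and the highest Krt18, and it had the highest Lcn2 at 5.47 CPM. The part of urothelium in these values was not tested.

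The other marker lists contained no call in either kidney comparison. Macrophage markers summed to 70.9 ± 8.34 CPM in water mice and 66.5 ± 6.90 CPM in NMN mice of the first schedule (SD, n = 4) and to 70.1 ± 8.52 and 77.2 ± 19.6 CPM in the second (SD, n = 3). Csf1r, the receptor for macrophage growth factor, was the most abundant of them in each group. Lymphocyte markers summed to between 5.89 and 11.7 CPM over all kidneys, and only 2 of 6 were tested. Thick ascending limb markers had a median log2 fold change of 0.28 in the first schedule, with all 6 higher in NMN mice, and of 0.01 in the second. Podocyte markers were higher for all 5 genes in both, with a median of 0.33 in each. The adipocyte sum lay higher in the second schedule than in the first, with 53.8 and 47.1 CPM in the water and NMN mice of the first and 263 and 283 CPM in those of the second.

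The water mice of the 2 schedules were compared to see how far the members moved without NMN. Mdk was higher in the second schedule, at 26.8 ± 0.18 CPM (SD, n = 3) against 20.7 ± 3.17 CPM (SD, n = 4), with a log2 fold change of 0.36 (SE 0.12). Krt8 was lower, at 72.2 ± 0.78 against 89.8 ± 7.85 CPM (log2 fold change -0.33, SE 0.09). The groups did not overlap for either gene, as for 29.6% of all genes. By edgeR 2787 of 15267 genes (18.3%) were called, these 2 of 9 members among them, and nothing is read from that count. Havcr1 had a log2 fold change of 1.08 (SE 0.52), which was -0.05 without water replicate 1 of the second schedule and 1.51 without water replicate 3. With library totals alone in place of TMM scaling Mdk had a log2 fold change of 0.19, while the median of all genes moved from -0.01 to -0.18. All 5 adipocyte markers were called higher in the second schedule (median on the log2 scale 2.82), at a summed level of 263 against 53.8 CPM, of which Fabp4 made 191 and 44.6 CPM. Of 6 hepatocyte markers 4 (Alb, Apoa1, Cps1 and Tat) were called lower, and the list summed to 117 against 171 CPM. Ttr, the most abundant, stood at 72.2 against 67.8 CPM, and Tat had no count in the water mice of the second schedule. The mitochondrial share was also higher there, as given above, and the part of these differences in those of Mdk and Krt8 was not tested.

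The liver served as contrast, and the members divided by organ. Mdk stood at 23.3 ± 3.94 CPM in the kidney and 0.62 ± 0.26 CPM in the liver of water mice (SD, n = 7), 37.1-fold higher in the kidney (log2 fold change 5.21, SE 0.19, with the schedule as covariate). Spp1 was 8.23-fold higher in the kidney (log2 fold change 3.04, SE 0.10). Havcr1 had 207 counts in the 7 water kidneys and 2 in the 7 water livers, and the ratio of the counts scaled as for CPM was 53.1 (95% interval 14.5 to 441, counting error only). Krt20 had 112 counts in these kidneys and 0 in these livers, which is 19.1-fold higher on the same scale against a floor of 3 counts over the group and at least 15.3-fold by the lower 95% limit of counting error.

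The keratin pair and clusterin went the other way. Krt18 was 16.8-fold lower in the kidney than in the liver (275 ± 63.1 CPM in the liver, log2 fold change -4.07, SE 0.15). Clu was 13.7-fold lower (2643 ± 327 CPM in the liver, log2 fold change -3.78, SE 0.10), and Krt8 3.45-fold lower (281 ± 36.0 CPM in the liver, log2 fold change -1.79, SE 0.10). Krt18 to Krt8 stood thus at 191 against 143 CPM per kb in the liver and at 11.4 against 42.0 CPM per kb in the kidney. Vcam1 was lower in the kidney by a log2 fold change of -0.57 (SE 0.17) and Vim higher by 0.38 (SE 0.17), and the organs overlapped for both. By edgeR 11159 of 14331 genes (77.9%) were called, the 8 members tested among them. Mdk and Havcr1 passed the filter on low counts through the kidney alone, and nothing is read from the count of members. With library totals alone the median of all genes moved from 0.09 to 1.06 and Vcam1 came out higher in the kidney (0.41), and within the second schedule Vim was level (0.03).

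**Figure D5:**
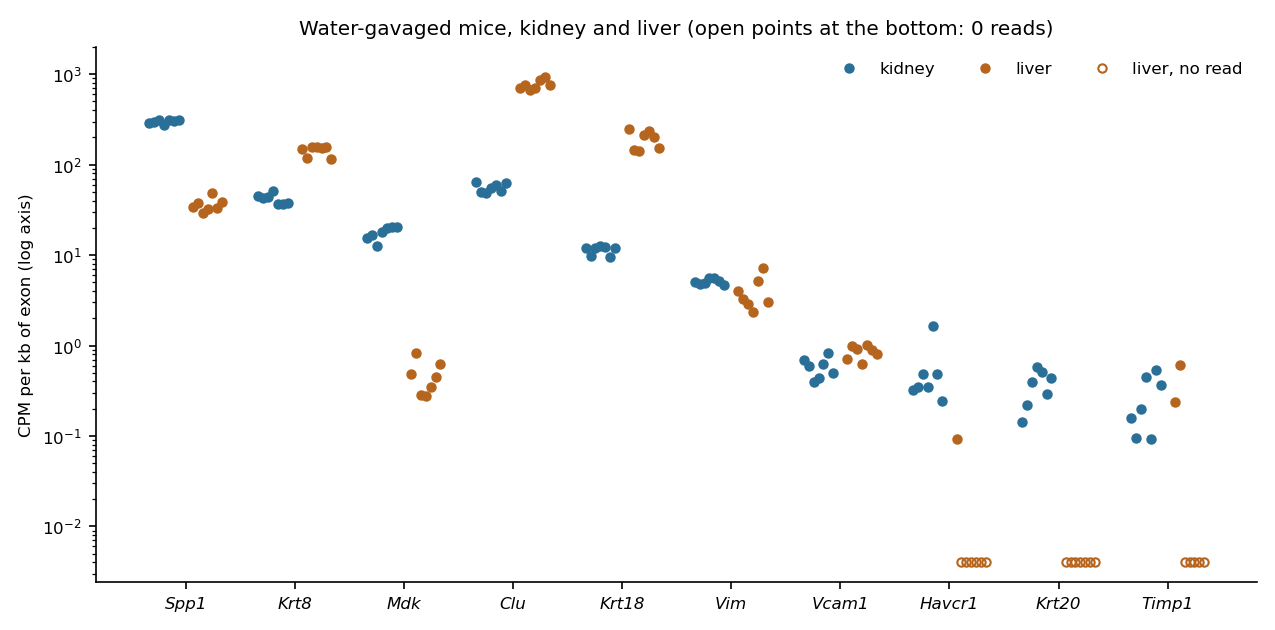
CPM per kb of exon (log axis) of the 10 members in the kidney (blue) and liver (brown) of the 7 water mice per organ; open points at the bottom mark libraries without a read. Spp1, Mdk, Havcr1 and Krt20 lie higher in the kidney and Clu, Krt8 and Krt18 higher in the liver.

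In the liver no member was called in either schedule. Of 10 members 6 were tested at 1340 mg/kg/d, where 2 of 12449 genes were called (0.0161%), and none was under an unadjusted p of 0.05 (6.86% of all genes) or called by DESeq2 (0.569%). The same 6 were tested at 2680 mg/kg/d, where 883 of 12477 genes were called (7.08%). One of them, Vcam1, was under an unadjusted p of 0.05 (24.6% of all genes) and DESeq2 called none (11.6%). Mdk could not be tested in the liver, with 0.336 to 1.09 CPM in all 14 libraries and a mean of 0.62 and 0.58 CPM in water and NMN mice of the first schedule and 0.63 and 0.49 CPM in those of the second. Havcr1 had 2 counts in 1 water mouse and none in the other 13 livers, which allows at most 3 counts in each of them, and Krt20 had 1 count in 1 NMN mouse. Timp1 reached at most 0.544 CPM.

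Vcam1 showed the largest difference of the members in the liver. In the first schedule the water mice had 6.27, 8.71, 8.17 and 5.59 CPM and the NMN mice 12.3, 15.5, 10.4 and 5.43 CPM, so that 3 of 4 NMN mice exceeded all water mice and NMN replicate 4 lay below them (log2 fold change 0.61, SE 0.29, adjusted p 0.742 by edgeR). In the second the water mice had 9.02, 7.86 and 7.23 CPM and the NMN mice 15.7, 13.8 and 10.5 CPM. Every NMN mouse exceeded every water mouse, as for 13.1% of all genes, and the log2 fold change was 0.77 (SE 0.24, adjusted p 0.0801 by edgeR). With library totals alone it was 0.92 and passed the threshold (adjusted p 0.0405 by edgeR), but that scaling moved the median of all genes from 0.00 to 0.15. In the kidney of the same groups the log2 fold changes of Vcam1 were 0.18 and 0.12, and the difference between the organs was not tested.

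The other liver members differed by little. Krt18 had 342, 291 and 217 CPM in water mice and 213, 243 and 190 CPM in NMN mice at 2680 mg/kg/d (log2 fold change -0.37, SE 0.17, adjusted p 0.213 by edgeR), and -0.17 (SE 0.19) in the first schedule. The log2 fold changes of Spp1 were 0.17 (SE 0.13) and 0.26 (SE 0.18), those of Clu 0.15 (SE 0.14) and 0.03 (SE 0.12), those of Krt8 -0.09 (SE 0.13) and -0.05 (SE 0.15), and those of Vim -0.03 (SE 0.22) and -0.02 (SE 0.27). For the last 3 in the second schedule the sign turned with the scaling or with 1 library left out. Clu, the most abundant member in the liver per kb, lay between 2031 and 3193 CPM in all 14 livers.

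Companion genes were called in the liver only at 2680 mg/kg/d. Nfkbia rose from 26.4, 35.4 and 41.1 CPM in water mice to 73.6, 73.5 and 90.4 CPM in NMN mice (log2 fold change 1.23, SE 0.19, adjusted p 0.0061 by edgeR), and Mmp14, a membrane-bound metalloproteinase, fell from 65.7, 50.4 and 34.7 to 24.0, 30.4 and 29.9 CPM (log2 fold change -0.81, SE 0.21, adjusted p 0.0447 by edgeR). Slc13a3, a dicarboxylate transporter, fell with a log2 fold change of -1.01 (SE 0.26, adjusted p 0.0414 by edgeR), and Ttr, the plasma carrier of thyroid hormone, fell from 11330, 11418 and 9757 to 4711, 6116 and 5514 CPM (log2 fold change -0.97, SE 0.13, adjusted p 0.0023 by edgeR). Mmp14 lost its call without water replicate 1 or 2 or NMN replicate 1 or 3, and Slc13a3 in all these fits and without water replicate 3, whereas Nfkbia and Ttr kept theirs in all 6. Among the other tubule injury and repair genes of the liver 28 and 29 were tested, with 22 and 16 higher and medians of 0.20 and 0.01.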

How the data were processed

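PolyA RNA of kidney and liver was sequenced in 28 libraries, labelled by organ, treatment, schedule and replicate number. According to the methods, STAR was the aligner and HTSeq-count the counter (intersection-strict, unstranded), and the deposited values are raw counts for each gene, neither normalized nor filtered by the authors. Reads that HTSeq-count put on no gene (3.27% to 12.8% without a feature, 1.76% to 5.10% ambiguous and 10.1% to 20.0% not unique) were left out. The genome the methods name could not be matched to a build, and symbols come from GENCODE M21, in which 53229 gene IDs matched with their version, 1180 without it and 37 not at all. Coordinates and the coding sequence are from that annotation.

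The members and lists were chosen with earlier results of these data known. Counts were fitted in R 4.3.3 with edgeR 4.0.16 (limma 3.58.1), with filterByExpr, TMM scaling, robust quasi-likelihood tests and Benjamini-Hochberg adjustment over all tested genes. NMN was compared with water within 1 schedule and organ, the organs in water mice with the schedule as covariate, and the water kidneys between schedules. Nothing states that the kidney and liver libraries of 1 number are the same mouse, and they were treated as independent. Between mice the biological variation (edgeR's coefficient) came to 16.2% and 12.0% for NMN in the kidney and 25.0% and 23.6% for NMN in the liver. SE is the log2 fold change over the square root of F. Levels are CPM with TMM over all 28 libraries, also divided by exon length. Intervals of count ratios are exact at 95% and cover counting error only, since PCR copies were not marked by molecular identifiers.

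Named are all members, up to 3 genes of each other list with the smallest p in each kidney NMN comparison, companion genes called in the liver, the 3 genes most like each member but Timp1 (Pearson's r, log2 CPM with a prior count of 2, among other genes with a mean CPM of at least 1, a minimum not set for the members) and marker genes. Lcn2, Fga, Fgb, Alb and Upk1a, and Cxcl1 and Nfkbia in single mice, were named after their values were seen. A gene of the companion lists that this rule names is not reported here. No 2 libraries of 1 group agreed within sampling noise. The alternatives were DESeq2 1.42.0, its size factors and upper quartile scaling in edgeR, other filters on low counts, no robust estimates, no mitochondrial genes, each library left out, blocking on the replicate number, a fit of all 14 libraries of 1 organ, other thresholds and, for the organs, each schedule alone. Library totals alone were added after seeing the data. The edgeR step was tested on simulated data.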

Additional observations from a re-analysis of the deposited data

Results flagged for a closer look

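In each group of 4 mice the gap between the farthest mouse and the nearest other was set against the range of the group, with Dixon's 95% critical value as the limit for naming a mouse. Over the 38 groups of values read this way chance alone passes the limit about 1 time in 20. The kidney values chose the members, so the mice are named as a description and not as a test. Havcr1 in the kidney of NMN replicate 1 at 1340 mg/kg/d stood at 6.39 CPM, with the nearest mouse at 1.58 CPM. Krt20 in the kidney of the same mouse stood at 0.733 CPM, with the nearest at 0.202 CPM. In the liver Havcr1 was read only in water replicate 1 at 1340 mg/kg/d, at 0.213 CPM or 2 counts, and Krt20 only in NMN replicate 2 at 1340 mg/kg/d, at 0.0833 CPM or 1 count. A group with counts in a single mouse always passes this limit, so the liver values show no more than these counts. Groups of 3 mice were not examined, among them those with 14.1 CPM of Havcr1 in NMN replicate 3 and 16.6 CPM of Mdk in NMN replicate 1 at 2680 mg/kg/d.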

How the results depend on the processing

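The counts of called genes depended on the settings. In the kidney at 1340 mg/kg/d the 18 genes became 269 without a filter, 5 without robust estimates, 75 with the replicate block, 159 in DESeq2, 1338 at an unadjusted p and 2 at a strict threshold (adjusted p under 0.01 plus a 2-fold difference), and 5 to 67 with 1 library left out. At 2680 mg/kg/d the 61 genes became 514 without a filter, 92 with the replicate block, 35 in the fit of all 14 libraries, 236 in DESeq2, 1688 at an unadjusted p and 3 at the strict threshold, and 3 (without water replicate 3) to 191 (without NMN replicate 1). In the liver at 1340 mg/kg/d the 2 genes became 44, 16 with the block, 6 in the fit of 14, 74 in DESeq2, 854 and 0 in that order, and 0 to 18 with 1 library left out. At 2680 mg/kg/d the 883 genes became 1785 without a filter, 1450 in DESeq2, 3072 unadjusted and 135 strict, and 211 to 1308 with 1 library left out. Between organs 10979 to 11506 genes were called with 1 library left out, and between water kidneys 1632 to 2880. The cause of these shifts was not tested. With library totals alone the share of higher genes among those called went from 43.0% to 71.5% in the liver at 2680 mg/kg/d, from 52.9% to 84.9% between organs (61.1% with upper quartile scaling) and from 41.4% to 12.7% between water kidneys.

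With 1 library left out, the log2 fold change of Mdk in the kidney lay between -1.65 and -1.42 at 1340 mg/kg/d and between -2.71 and -1.34 at 2680 mg/kg/d. That of Havcr1 lay between 0.44 and 1.77 and between 0.44 and 2.94. In the first schedule those of Spp1 (-0.13 to 0.02), Krt8 (-0.01 to 0.09), Krt18 (-0.06 to 0.14), Clu (-0.09 to 0.05) and Vim (-0.23 to 0.10) turned sign with 1 kidney left out, as did Spp1 in the second (-0.06 to 0.10). The sign turned for 3 members in the liver at 2680 mg/kg/d, where library totals moved the median of all genes to 0.15. These were Krt8 (0.102 with library totals, -0.163 to 0.0402 without 1 library), Clu (-0.0227 with upper quartile scaling, -0.0313 to 0.0883 without 1 library) and Vim (0.129 with library totals, 0.0323 with the replicate block, -0.278 to 0.287 without 1 library). Vim in the liver at 1340 mg/kg/d ran from -0.139 to 0.113 without 1 library. Between water kidneys without 1 library Havcr1 ran from -0.0490 to 1.51, Krt18 from -0.120 to 0.0631 and Vim from -0.0708 to 0.0627. There Spp1 turned to -0.110 and Clu to -0.0832 with library totals, which moved the median of all genes to -0.18, and Vim to 0.0014 with size factors, 0.0085 with upper quartile scaling, 0.0073 without a filter, 0.0005 without mitochondrial genes, 0.0312 with the block and 0.0018 in DESeq2. Between organs Vcam1 turned to 0.41 with library totals and was -0.37 with upper quartile scaling and -0.45 within the second schedule.

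Same-numbered libraries were not treated as pairs, since the labels tie them to no shared mouse, their deviations correlated between -0.10 and 0.23 and each comparison had a pair under 0.1. Between the organs of water mice all 7 such pairs correlated positively and 7 of 7 liver and 6 of 7 kidney libraries correlated best with their own number, as did all 6 livers at 2680 mg/kg/d, as a hint from the data and not the design. With the replicate block 11111 genes were called between the organs, and the block changed no call of a member in any comparison. Depth limits Havcr1, Krt20 and Timp1, which were read from few counts.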
